A study of Mus musculus with 25 samples.

Results

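Potassium channel genes were taken as all genes whose name begins with Kcn followed by at least 1 further letter, with or without a number, 98 names in each of 3 tables of 24411 genes. Of these, 94 were channel or channel-subunit genes and 4 were antisense RNAs that carry a channel's name (Kcnq1ot1, Kcnd3os, Kcnmb4os1 and Kcnmb4os2). A mean normalized count (reads divided by the size factor of the library) of at least 10 over the libraries of a table was reached by 76 members in the aging table, 78 in the overexpression table and 4 in the knockdown table. The members just above this limit were Kcna5 at a mean of 10.3 in the aging table, Kcnj8 at 10.9 in the overexpression table and Kcnq1ot1 at 10.8 in the knockdown table, and those just under it were Kcnv2 at 8.37, Kcnk5 at 7.71 and Kcnip2 at 9.74.

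All libraries were made from NeuN+ nuclei, that is, nuclei sorted with an antibody to a neuronal nuclear protein, from the hippocampus of male C57BL/6 mice. The aging table held 3 libraries of young (3 months) and 2 of aged (18 months) wild-type mice. The overexpression table held 5 control and 7 libraries labelled Ftl1 OE, from mice of 3 months whose CA1 and dentate gyrus were injected with virus carrying GFP or Ftl1 under the neuronal synapsin promoter. The knockdown table held 4 control libraries (an shRNA to luciferase) and 4 libraries labelled Ftl1 KD (an shRNA to Ftl1), from mice of 18 months. The gate is described as taking nuclei positive for NeuN and a DNA stain. No selection on the virus is described, so nuclei with and without virus may have been pooled. The study counts each aging library as a mouse, the labels do not say so of the others, and p-values measure the spread between libraries.

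Depth ranged from 7969282 to 9537872 reads per library in the aging table, from 9943996 to 17034325 in the overexpression table and from 48902 to 358560 in the knockdown table. Ftl1 itself, the ferritin light chain gene targeted in both virus experiments, had a normalized count of 1917 ± 228 in the 3 young and of 4259 ± 17.7 in the 2 aged libraries (mean ± SD). Elsewhere Ftl1 RNA did not follow the labels. It stood at 11515 ± 9579 (SD, n = 5) in overexpression controls and 5968 ± 1251 (SD, n = 7) in libraries labelled Ftl1 OE. These groups overlapped, at 4580 to 28309 against 4737.5 to 7663 (adjusted p = 0.681 in limma, the linear model described below). Ftl1 stood at 43.8 ± 13.7 (SD, n = 4) in knockdown controls and 118 ± 15.01 (SD, n = 4) in libraries labelled Ftl1 KD (limma adjusted p = 0.000223). The paper reports by western blot that FTL1 protein moved with the labels in both experiments. Overexpression control 9905, with a Ftl1 count of 28309, had fewer genes detected than any other library of its table, and lies apart for many channel genes. As a check of the sort, 6 neuron markers (Rbfox3 among them) summed to between 27593 and 36770 in the aging libraries and 7 oligodendrocyte markers to between 2992 and 6813, while in the overexpression libraries they summed to between 22883 and 60306 and between 22807 and 48066. In these bulk libraries, fewer nuclei of a type and less RNA per nucleus cannot be told apart.

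Potassium channels let potassium ions leave the neuron, and so set its resting potential, end each action potential and limit how often the next one follows. The voltage-gated families (Kcna to Kcnd, Kcnh, Kcnq) open on depolarization, the inward rectifiers (Kcnj) and leak channels (Kcnk) carry current near rest, and the calcium- and sodium-activated families (Kcnma, Kcnn, Kcnt) follow ion entry during firing. Auxiliary subunits (Kcnab, Kcnip, Kcnmb, Kcne) and the electrically silent subunits (Kcnf, Kcng, Kcns, Kcnv) modify the channels that they join.

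Promoter windows were printed for Kcnab2 and Kcnc1, protein-coding genes that were lower in libraries labelled Ftl1 KD, and for the 2 channel genes that followed the choroid plexus gene Ttr across overexpression libraries, Kcnj13 and Kcne2. Each window runs 5′ to 3′ from 250 bases before to 50 bases after a RefSeq start on GRCm38.p6, and capitals mark GGGCGG, the GC box, or TATAAA, the TATA box, on either strand. Where RefSeq lists several starts, the most upstream is shown: the Kcnab2 window (1 of 3) is chr4:152477500-152477799, minus strand, that of Kcnc1 chr7:46396218-46396517, plus strand, that of Kcnj13 chr1:87394680-87394979, minus strand, and that of Kcne2 (1 of 2) chr16:92292139-92292438, plus strand.
Kcnab2: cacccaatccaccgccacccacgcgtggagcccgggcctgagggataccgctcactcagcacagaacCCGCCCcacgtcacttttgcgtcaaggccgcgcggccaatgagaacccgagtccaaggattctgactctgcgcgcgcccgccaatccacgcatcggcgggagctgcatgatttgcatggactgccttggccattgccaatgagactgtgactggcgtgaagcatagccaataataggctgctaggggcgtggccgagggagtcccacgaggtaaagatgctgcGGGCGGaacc
Kcnc1: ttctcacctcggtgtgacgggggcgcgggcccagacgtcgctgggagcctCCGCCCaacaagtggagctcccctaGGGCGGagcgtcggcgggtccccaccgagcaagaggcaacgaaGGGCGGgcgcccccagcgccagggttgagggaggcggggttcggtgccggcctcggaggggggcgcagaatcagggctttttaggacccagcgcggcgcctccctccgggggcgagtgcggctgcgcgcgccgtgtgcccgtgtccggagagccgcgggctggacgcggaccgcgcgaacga
Kcnj13: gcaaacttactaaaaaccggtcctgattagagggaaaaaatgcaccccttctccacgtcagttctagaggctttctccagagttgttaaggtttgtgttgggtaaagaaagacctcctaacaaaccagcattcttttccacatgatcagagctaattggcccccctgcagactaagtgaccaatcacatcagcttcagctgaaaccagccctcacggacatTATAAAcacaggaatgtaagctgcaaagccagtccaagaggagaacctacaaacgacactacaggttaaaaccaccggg
Kcne2: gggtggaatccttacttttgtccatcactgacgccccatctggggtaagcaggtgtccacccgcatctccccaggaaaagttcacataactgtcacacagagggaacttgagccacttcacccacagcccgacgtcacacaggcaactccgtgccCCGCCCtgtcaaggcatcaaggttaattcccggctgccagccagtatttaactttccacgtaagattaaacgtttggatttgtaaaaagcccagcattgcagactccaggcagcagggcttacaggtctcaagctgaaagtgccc

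The Kcnc1 window held 3 GC boxes and 41 CpG dinucleotides at 74.7% GC. The Kcnab2 window held 2 GC boxes and 25 CpG at 62.7% GC. Kcnj13 had 0 GC boxes, 1 TATA box and 5 CpG at 46.0% GC, and Kcne2 had 1 GC box and 9 CpG at 53.0% GC. Of all 32851 windows, 35.7% held a GC box and 13.6% a TATA box, and of the 97 windows of the 72 members that had a window, 47.4% and 5.15% did. These matches describe letters in the windows and were not tested.

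The level of each channel gene was compared between genes as the normalized count per kb of its longest annotated transcript in the 3 young libraries. Kcna1, an axonal delayed rectifier, was among the highest at 791 ± 33.0 per kb (SD, n = 3). Kcnc2, a Kv3 channel of fast-spiking cells, followed at 736 ± 24.1, and its highest library (764) lay just under the lowest of Kcna1 (766). Kcnk1, a leak channel, stood at 503 ± 95.7, Kcnip2, a partner of A-type channels, at 384 ± 97.4, and Kcnj6, a GIRK channel opened by G proteins, at 370 ± 40.7, and the ranges of Kcnk1 and Kcnip2, and of Kcnip2 and Kcnj6, overlapped.

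The median tested gene stood at 71.5 per kb, so these leading channels lay above 89.5% or more of the tested genes. The 10 highest of the 94 channel genes held 52.6% of the summed level per kb. Among the leading genes of other families, Kcnn2, a small-conductance calcium-activated channel, stood at 323 ± 46.2 per kb, Kcnab2, a β subunit of Kcna channels, at 323 ± 81.0, and Kcnf1, a silent subunit, at 211 ± 48.8. Kcnd2, the dendritic A-type channel, stood at 204 ± 31.7, Kcnma1, the BK channel, at 187 ± 7.26, and Kcnt1, the sodium-activated Slack channel, at 180 ± 42.2. Kcnh3 stood at 135 ± 12.8, Kcns1 at 123 ± 36.0, Kcnv1 at 95.5 ± 24.5, Kcnmb4, the neuronal BK β subunit, at 92.0 ± 19.6, and Kcng1 at 69.6 ± 16.96 per kb. The leading members of the remaining families were lower still, with Kcnrg at 25.5 ± 32.8, Kcnu1 at 6.42 ± 3.49 and Kcne3 at 5.00 ± 4.50 per kb.

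**Figure D1:**
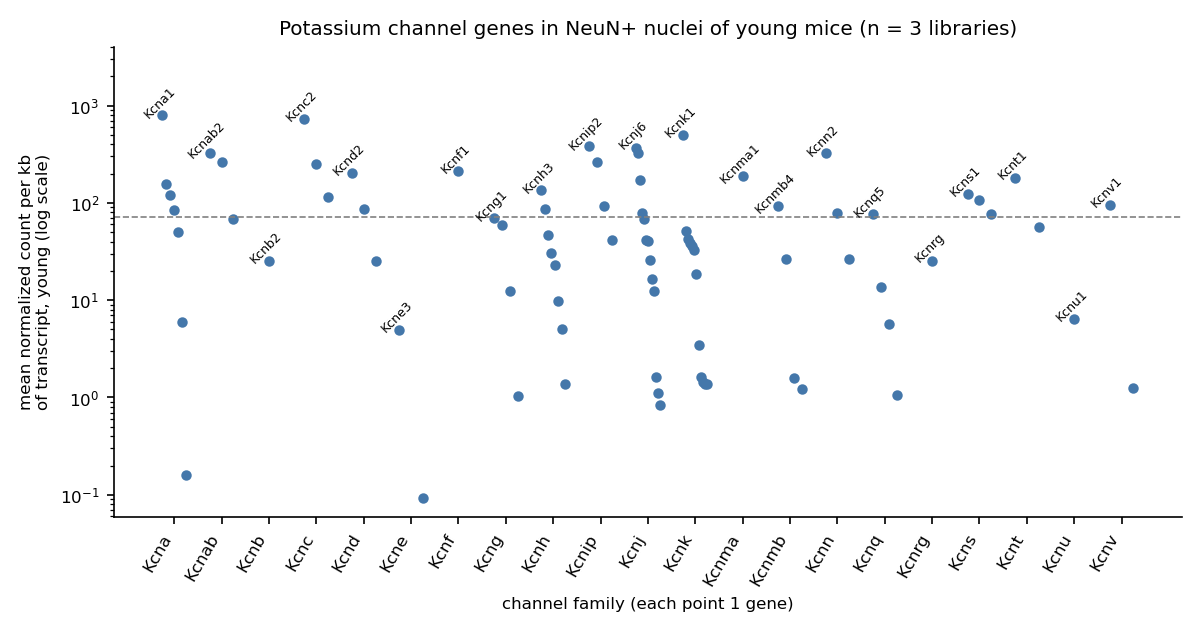
Mean normalized count per kb of transcript (log scale) of potassium channel genes in the 3 young libraries, by family. The leading gene plotted in each family is named and the dashed line is the median of all tested genes, 71.5 per kb. Kcna1 and Kcnc2 stand highest among the genes plotted, and genes listed at 0 in young libraries are left out.

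No read was found in any library of the aging table for 7 channel genes (Kcna10, Kcne4, Kcnj1, Kcnj5, Kcnk5, Kcnk16 and Kcnn4), which allows at most 3 reads in each library, or a normalized count of up to 3.18. No read was found for 7 channel genes in the overexpression libraries and for 22 in the knockdown libraries. The order of the levels per kb in controls was alike across the separately normalized tables, with a Spearman rho of 0.853 over 78 genes between the aging and overexpression tables and of 0.775 over 66 genes between the aging and knockdown tables. These points share gene lengths and the authors' counting, and the correlations are a description.

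The aging comparison asked how neuronal nuclei of aged mice differ from those of young mice. All differences below were taken on log2(normalized count + 1) with limma, a linear model fitted across all tested genes, and adjusted p-values are Benjamini-Hochberg values over those genes. At an adjusted p of 0.05 and a log2 difference of 0.5, 0 of the 76 tested members passed, beside 0% of all 13712 tested genes, and the count models edgeR and DESeq2 called 0 members too. At an unadjusted p of at most 0.05, 4 members were higher, where 2.9% of all tested genes were, and 5 were lower, where 5.04% were. The median log2 difference of the members was 0.14, beside -0.03 over all tested genes, and 57.9% of the members had a higher mean log2 level in aged libraries, beside 48.3% of all. This direction rested on single libraries: without aged replicate 2 the median was -0.03, beside 0.02 over all genes, and 34 of 72 members were higher, and without young replicate 1 it was 0.03.

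The Kv3 channels Kcnc1, Kcnc2 and Kcnc4 showed unlike directions. They repolarize fast-spiking neurons quickly enough to let them fire again at once. Kcnc1 stood at 941, 930 and 837 in young and 1794 and 1273 in aged libraries, and Kcnc4 at 1103, 790 and 879 against 1365 and 1833. For both genes the lower aged value exceeded the highest young value. The log2 differences were 0.75 ± 0.28 (SE; limma adjusted p = 0.557) for Kcnc1 and 0.79 ± 0.29 (adjusted p = 0.548) for Kcnc4 in limma. Kcnc2 stood at 3634, 3855 and 3656 in young and 2801 and 2380 in aged libraries, both lower than every young value, with a log2 difference of -0.52 ± 0.26 (limma adjusted p = 0.642).

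**Figure D2:**
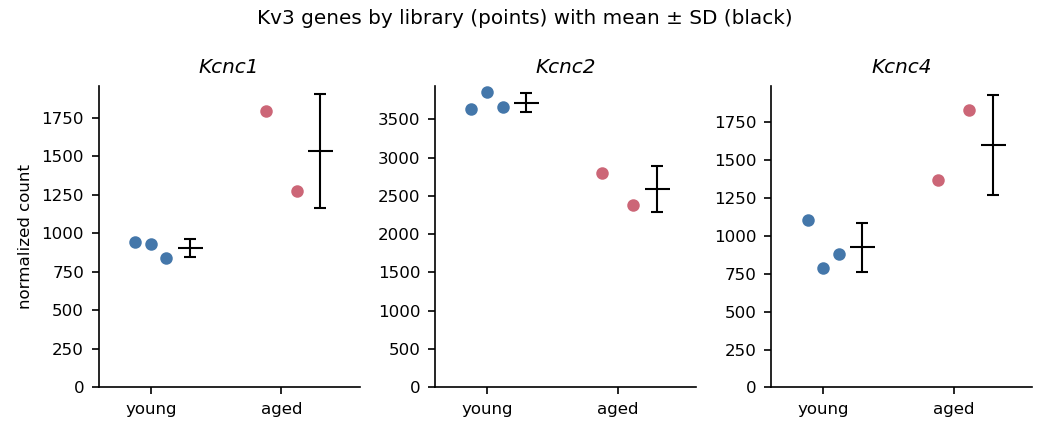
Normalized counts of 3 Kv3 genes in each young (blue) and aged (red) library, with the mean ± SD in black and the y axis from 0. Kcnc1 and Kcnc4 lie higher and Kcnc2 lower in both aged libraries, and none passed the adjusted threshold.

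Groups that did not overlap are common in a design of 3 against 2. Among the tested members 13 lay higher and 12 lower in both aged libraries than in every young library, 17.1% and 15.8%, where 12.2% and 12.5% of all tested genes did, and the smallest p an exact permutation test can give here is 0.1. Among the Kcna genes, Kcna2 stood at 1562, 987 and 1680 in young and 2063 and 2037 in aged libraries, and Kcna4, an A-type channel, at 588, 881 and 773 against 455 and 480. The groups were apart for both genes, in opposite directions, with log2 differences of 0.58 ± 0.30 (limma adjusted p = 0.648) and -0.66 ± 0.32 (adjusted p = 0.642). Kcna1 stood at 3088, 3340 and 3139 in young and 3528 and 4350 in aged libraries, with a log2 difference of 0.30 ± 0.26. Kcnab1, a β subunit that inactivates Kcna channels, stood at 961, 1190 and 1287 against 823 and 547, apart, with a log2 difference of -0.76 ± 0.30 (limma adjusted p = 0.592), and of -0.47 without aged replicate 3.

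Kcng2, a silent subunit, stood at 147, 268 and 79.9 in young and 513 and 273 in aged libraries, with a log2 difference of 1.34 ± 0.55 (limma adjusted p = 0.600), and of 0.89 without aged replicate 2. The differences of Kcnk10, Kcnk13 and Kcnmb2, genes of low counts, moved with 1 aged library, replicate 3. Kcnk10, a mechanically gated leak channel, stood at 174, 130 and 114 against 53.4 and 7.35, a log2 difference of -2.70 ± 0.84 (limma adjusted p = 0.502), and at -1.35 without that library. Kcnk13, a leak channel known from microglia, stood at 116, 107 and 114 against 53.4 and 0, a log2 difference of -3.94 ± 1.36 (adjusted p = 0.533 in limma), and at -1.06 without that library. Kcnmb2, a BK β subunit, stood at 44.6, 148 and 41.7 against 29.7 and 1.84, a log2 difference of -2.83 ± 1.19 (limma adjusted p = 0.610), and at -1.11 without it. In edgeR the log2 differences of Kcnk10, Kcnk13 and Kcnmb2 were smaller in size, at -2.21, -2.08 and -2.32.

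Kcnj10, the glial inward rectifier that clears potassium around neurons, stood at 119, 21.2 and 63.0 in young and 12.9 and 8.27 in aged libraries, a log2 difference of -2.29 ± 1.05 (limma adjusted p = 0.624). In the same libraries the summed count of 8 astrocyte markers ranged from 3035 to 4484 in young and from 1966 to 4241 in aged libraries, and the part of that in the Kcnj10 difference was not tested. The 7 microglia markers ranged from 447 to 826 in young and from 379 to 1044 in aged libraries. The list of channels of other cells also held Kcnj13 (85.0, 96.5 and 119 against 51.4 and 95.5), Kcnj16 (0, 18.0 and 0 against 46.5 and 0), Kcnj8 and Kcnn4, the latter without a read.

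**Figure D3:**
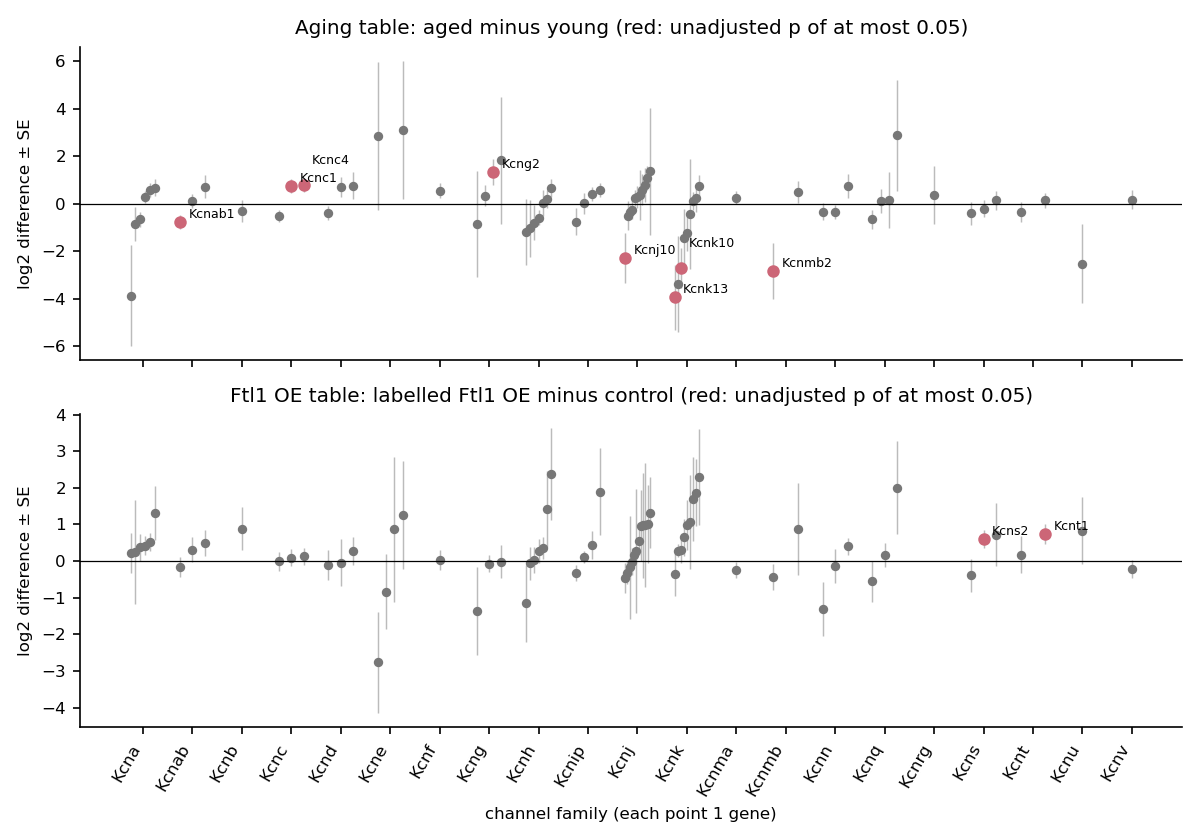
Log2 difference (points) with its SE (lines) from limma for tested channel genes by family, aged minus young above and libraries labelled Ftl1 OE minus control below. Red points have an unadjusted p of at most 0.05, 8 in the upper and 2 in the lower panel, and none passed the adjusted threshold.

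Of the whole list of 34 channels known from hippocampal neurons, 20 had a higher and 14 a lower mean log2 level in aged libraries, with a median log2 difference of 0.13 and 0 past the adjusted threshold in limma (2 higher and 1 lower at an unadjusted p of at most 0.05). The summed count of all 94 channel genes averaged 44905 ± 1393 over the 3 young and 50086 ± 1512 over the 2 aged libraries (± SD), without overlap. Of single tested genes, 12.2% lay higher in both aged libraries. The sum weighs abundant genes most, and without aged replicate 2 the members' median log2 difference was -0.03. As a share of all reads these genes took 52.7 to 55.0 of every 10000 reads in young and 57.0 to 58.4 in aged libraries. Reads assigned to Rn45s, the ribosomal RNA precursor, made up 2.63% to 4% of young and 5.92% to 6.42% of aged libraries.

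The long noncoding RNA Kcnq1ot1, transcribed from the strand opposite Kcnq1, stood at 15537, 9262 and 10735 in young and 15714 and 8456 in aged libraries, a log2 difference of -0.00 ± 0.36 (limma adjusted p = 0.998). Kcnq1 itself had a mean count of 16.1 over these libraries. The sources differ on whether the libraries kept strand, and without strand reads of this pair cannot be told apart. Of the genes that carry potassium by other means, Slc12a5, the neuronal potassium-chloride exporter, stood at 2134 ± 142 in the 3 young and 3489 ± 444 in the 2 aged libraries (± SD). Its log2 difference was 0.71 ± 0.26 and did not pass the threshold (limma adjusted p = 0.548). Of 29 tested partners of channels, Akap5, a scaffold of kinases at channels, stood lower at 479 ± 49.5 against 259 ± 76.2 (limma adjusted p = 0.581), and 0 passed the threshold. Of 18 tested Kctd genes, which share a tetramerization domain with Kcna channels, 3 had an unadjusted limma p of at most 0.05 (1 higher and 2 lower) and 0 passed.

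Overexpression compared libraries labelled Ftl1 OE with GFP controls, in which Ftl1 itself was not higher in the labelled libraries. In limma 0 of the 78 tested members passed, beside 0% of all 14099 tested genes, and edgeR and DESeq2 called 0 members. At an unadjusted p of at most 0.05, 2 members were higher, where 3.6% of all tested genes were, and 0 were lower, where 3.66% were. No member's groups were apart, where 0.17% of all tested genes lay higher and 0.411% lower in every labelled library. The median log2 difference of the members was 0.26 beside 0.10 over all tested genes.

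Kcnt1, the Slack channel, stood between 308 and 801 in controls (median 481) and between 665 and 1449 in libraries labelled Ftl1 OE (median 732). The groups overlapped only through control 9925, which stood above 5 of the 7 labelled libraries. The log2 difference was 0.74 ± 0.28 (limma adjusted p = 0.592, exact two-sided permutation p = 0.0215 for this gene alone). Kcns2, a silent subunit that joins Kcnb channels, stood between 310 and 853 (median 543) in controls and between 574 and 1094 (median 772) in labelled libraries, with a log2 difference of 0.61 ± 0.26 (limma adjusted p = 0.640, exact two-sided permutation p = 0.029). These p-values are 2 of 78 computed in this table.

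Kcna1 and Kcnc2, high in the young libraries, overlapped between groups here. Kcna1 ranged from 1020 to 3280 in controls and from 1568 to 2932 in labelled libraries, and Kcnc2 from 392 to 609 and from 299 to 721. Kcnc1 ranged from 614 to 1545 and from 881 to 1602, and Kcnc4 from 768 to 1953 and from 877 to 1868. These Kv3 genes had log2 differences from -0.01 to 0.13.

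Control 9905 stood apart in several members. Its count was 0 for Kcnip4, an A-type channel partner that ranged from 45.2 to 923 in the other controls, and 13.5 for Kcna4, which ranged there from 100.9 to 918. In the opposite direction it held 1312 for Kcng1, against 596 to 688 in the other controls, and 2979 for Kcnj9, a GIRK subunit, against 1621 to 1856. Without this library the members' median log2 difference was 0.21 and 0 members passed.

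Kcnj13, an inward rectifier of the choroid plexus epithelium, and Kcne2, an auxiliary subunit found in the same epithelium, varied with library rather than with label. Kcnj13 stood at 2170, 40.6, 56.8, 769 and 0 in controls 9901, 9904, 9905, 9925 and 9926, and at 11.95, 1350, 34.7, 475, 7.95, 49.5 and 788 in labelled libraries 9895, 9910, 9914, 9915, 9918, 9923 and 9932. Kcne2 stood at 841, 0, 0, 82.7 and 0, and at 0, 277, 7.70, 162, 0, 6.00 and 146 in the same order. High values of both genes fell in the same 5 libraries.

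Ttr, the transthyretin gene and a marker of choroid plexus, stood above 10000 in 6 libraries, 3 of each group, and between 247 and 1299 in the other 6. In those 6 libraries with high Ttr, Kcnj13 ranged from 56.8 to 2170, and in the others from 0 to 49.5. Kcne2 ranged from 0 to 841 with high Ttr and from 0 to 7.70 otherwise, the 0 being control 9905. Of the other choroid plexus genes, Folr1 ranged from 348 to 1741 and from 0 to 27.0, without overlap. Kl (199 to 1090 and 8.83 to 332), Clic6 (0 to 1262 and 6.15 to 80.3) and Otx2 (0 to 256 and 0 to 9.76) overlapped, with control 9905 at 0 for Clic6 and Otx2. These marker genes were chosen after the values were seen. In the aging table Ttr reached 1249, Kcnj13 stayed at 119 or lower and Kcne2 at 11.9 or lower.

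**Figure D4:**
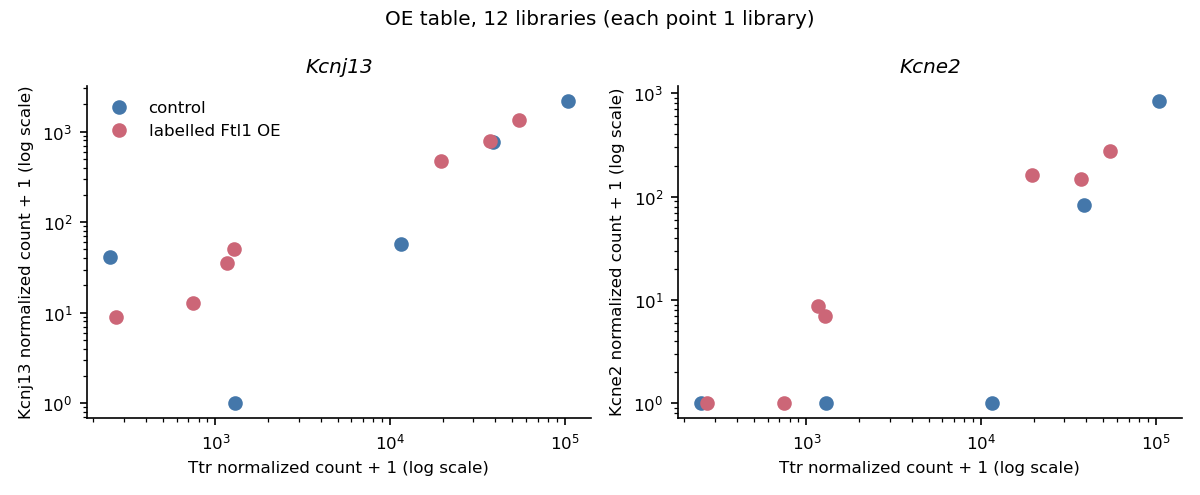
Normalized count + 1 of Kcnj13 (left) and Kcne2 (right) against that of Ttr in each of the 12 overexpression libraries, on log axes, controls in blue and libraries labelled Ftl1 OE in red. The 5 libraries with the highest Ttr hold the 5 highest values of both genes, and they come from both groups.

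Kcnj10 ranged from 1.35 to 236 in controls and from 61.0 to 453 in labelled libraries, Kcnj16 from 1.10 to 210 and from 0 to 107, and Kcnk13 from 0 to 165 and from 9.72 to 234, and none of these differences passed (limma adjusted p = 0.741, 0.981 and 0.706). Kcnj8, of blood vessel cells, was found in 1 of 5 controls and in 3 of 7 labelled libraries. The 7 microglia markers summed to between 2347 and 5268 in controls and between 1361 and 2656 in labelled libraries, and their part in the values of Kcnk13 was not tested. Kcnq1ot1 ranged from 373 to 4789 in controls and from 648 to 3632 in labelled libraries, a log2 difference of 0.00 ± 0.51.

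Partners, transporters and Kctd genes gave 0 calls in this table. At an unadjusted p of at most 0.05, 1 of 30 tested partners was higher and 2 were lower, and 1 of 14 tested transport genes was higher. Of all tested genes 3.6% were higher and 3.66% lower at that limit. Cntn2, which clusters Kcna channels beside the node of Ranvier, was higher at 698 ± 314 (SD, n = 5) in controls and 1081 ± 105 (SD, n = 7) in labelled libraries (limma adjusted p = 0.619). Its binding partner Cntnap2 was lower at 1703 ± 584 against 1088 ± 193 (limma adjusted p = 0.574). Calm3, a calmodulin gene, stood at 5968 ± 965 against 4349 ± 1028 (adjusted p = 0.638 in limma), and the pump subunit Atp1b3 at 671 ± 293 against 974 ± 258 (adjusted p = 0.672 in limma).

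Knockdown compared libraries labelled Ftl1 KD with controls, and Ftl1 was higher in the labelled libraries. All 4 members with a mean of at least 10 fell, with limma adjusted p-values between 0.00176 and 0.0360, where 13.7% of all 1460 tested genes were called lower and 10.5% higher. They included the β subunit gene Kcnab2 (GRCm38, chr4:152390742-152477871, minus strand), the Kv3 channel gene Kcnc1 (chr7:46396497-46438704, plus strand) and the noncoding RNA Kcnq1ot1 (chr7:143203458-143296549, minus strand). edgeR and DESeq2 called the same 4. A median over 4 genes is not a statement on the family, since the limit on the mean was passed only by its most abundant members. Kcnc1 and Kcnq1ot1 met that limit only through the controls, with means of 19.6 and 16.9 there and 5.19 and 4.82 in labelled libraries. Their selection thus leaned on the group where they were high, and the calls are read with that limit.

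Kcnab2 stood at 28.3, 42.4, 33.7 and 60.2 in controls and 19.2, 13.5, 16.4 and 10.3 in libraries labelled Ftl1 KD, and every labelled library lay lower than every control. Its log2 difference was -1.39 ± 0.31 (limma adjusted p = 0.00176). These counts rested on 18 to 144 reads in controls and 7 to 20 in labelled libraries.

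Kcnc1 stood at 21.7, 13.3, 13.1 and 30.1 against 6.71, 4.51, 3.64 and 5.88, again without overlap, a log2 difference of -1.68 ± 0.45 (limma adjusted p = 0.00751) on as few as 2 reads. Kcnq1ot1 stood at 12.3, 11.3, 14.98 and 28.8 against 4.79, 7.22, 7.29 and 0, and the log2 difference of -1.91 ± 0.67 (limma adjusted p = 0.0360) was -1.19 with an adjusted p of 0.0736 without the library at 0. Kcnq1 had no read in this table. All 4 members gave an exact two-sided permutation p of 0.0286, the smallest that 4 against 4 libraries allow, and 11.9% of all tested genes lay lower in every labelled library and 11.8% higher.

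**Figure D5:**
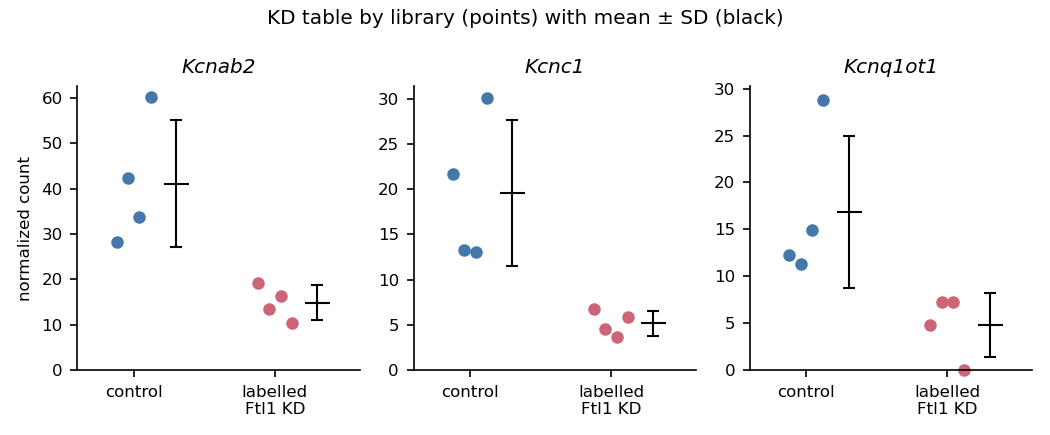
Normalized counts of Kcnab2, Kcnc1 and Kcnq1ot1 in each control (blue) and each library labelled Ftl1 KD (red), with the mean ± SD in black and the y axis from 0. In each gene every labelled library lies below every control.

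Calls moved with single libraries. Without control 2, 2 of the 4 members passed (Kcnab2 and Kcnc1), and without control 5, a deep library with the highest counts of all 4 genes, only 2 members reached the limit on the mean and 1 passed (Kcnab2). Without labelled replicate 3, 3 members passed. Kcnq1ot1 also missed the threshold without control 1 or control 3 (limma adjusted p = 0.0663 and 0.0628).

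With the limit on the mean lowered to 2, chosen after the data were seen, 36 members were tested among 6364 genes. The same 4 passed, where 3.85% of all these genes were called lower. Of the 36, 31 (86.1%) had a lower mean log2 level in labelled libraries, beside 55.0% of all 6364, with a median log2 difference of -1.06 beside -0.12. The 6 members whose groups were apart and lower included Kcnab2, Kcnc1, Kcnq1ot1, Kcnt1 and Kcnd3, where 6.76% of all genes lay lower in every labelled library. Kcnt1 stood at 7.55, 7.66, 5.62 and 5.85 in controls and 0.959, 0.902, 0 and 2.94 in labelled libraries, a log2 difference of -1.96 ± 0.63 (limma adjusted p = 0.0522). Kcnd3, an A-type channel, stood at 3.78, 2.02, 9.36 and 2.09 against 1.92, 0, 0 and 0 (limma adjusted p = 0.129). Kcnt1 and Kcnd3 met the limit of 2 only through controls, with means of 6.67 and 4.31 there and 1.2 and 0.479 in labelled libraries. More members did so too, among them Kcnj6 (8.145 against 1.156), Kcng1 (3.73 against 0.705) and Kcnab1 (4.68 against 0.921). Kcns2 (4.33 against 1.58) and Kcns1 (2.76 against 1.61) were others. In the opposite direction, Kcnv1 (1.62 against 2.65) met the limit only through labelled libraries. The 31 of 36 is therefore a description and no separate support for lower channels.

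Summed over all 94 channel genes, controls stood at 228 to 429 and labelled libraries at 132 to 182. The Kcnab family summed to 37.5 to 64.4 against 10.3 to 21.1, without overlap, and the Kcnc family to 16.9 to 65.2 against 11.5 to 17.6, with overlap. Kcnab2 alone gave 41.1 of the mean Kcnab sum of 49.45 in controls, so that sum largely repeats its call. The Kcng, Kcnip, Kcns and Kcnt sums also lay lower without overlap, and the sums of the remaining families overlapped. In labelled libraries the Kcng, Kcns and Kcnt sums rested on at most 5, 4 and 2 reads per library. Kcnt1 alone gave 6.67 of the mean Kcnt sum of 7.11 in controls. Of single genes with a mean of at least 2, 6.76% lay lower in every labelled library, and no such share was computed for sums. Channel genes took 17.9 to 36.4 of every 10000 reads in controls and 15.03 to 19.6 in labelled libraries, which overlapped. For the control at 17.9 the 95% Wilson interval was 15.01 to 21.4, and these intervals cover counting error only.

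Other RNAs moved in the same libraries. Rn45s took 31.9% to 55.3% of reads in controls and 30.3% to 34.5% in labelled libraries, and with Rn45s left out channel genes took 38.0 to 63.7 of every 10000 reads against 21.6 to 29.9, without overlap. The 7 nuclear-retained RNAs summed to between 619 and 1235 in controls and between 219 and 322 in labelled libraries, and all 4 of them that were tested fell, among them Malat1, from between 250 and 572 in controls to between 77.9 and 143. The 7 oligodendrocyte markers summed to 36.8 to 93.6 against 10.9 to 21.7, and the 5 granule cell markers to 35.6 to 81.5 against 13.2 to 29.8. In the other direction, the 4 markers of oligodendrocyte precursors summed to 2.09 to 14.98 in controls and 15.33 to 27.3 in labelled libraries, without overlap. The 7 interneuron markers summed to 37.6 to 75.02 against 67.1 to 83.8, with overlap, and 1 of the 3 tested was called higher. The 6 neuron markers summed to 168 to 233 in controls and 217 to 269 in labelled libraries. The part of these RNAs in the channel differences was not tested.

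Among the partners of channels, 14 were tested and 3 passed, 2 lower and 1 higher, a share near the 13.7% of all tested genes called lower and 10.5% called higher. Ank3, which anchors Kcnq channels at the axon initial segment, fell from 21.6 ± 7.31 to 8.19 ± 2.06 (SD, n = 4 each), a log2 difference of -1.26 ± 0.37 (limma adjusted p = 0.0145). Gabbr1, a GABA receptor subunit that opens GIRK channels through G proteins, fell from 38.6 ± 12.6 to 17.3 ± 9.38 (limma adjusted p = 0.0134), and Gng2, a G protein γ subunit, rose from 5.28 ± 2.15 to 15.9 ± 4.29 (limma adjusted p = 0.0303). Of 7 tested genes of potassium transport 0 passed by limma, with 1 at an unadjusted p of at most 0.05. The channels of other cells summed to 0.836 to 1.89 in controls and 0 to 4.79 in labelled libraries, so that no difference was detectable at this depth.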

How the data were processed

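RNA of NeuN+ hippocampal nuclei was sequenced in 25 libraries. The authors aligned reads with STAR to mm10, counted them with RSEM and normalized them with DESeq2, and deposited 3 tables of normalized counts (a signal), each normalized separately. Their own fold changes and p-values in these tables were not used. Whole reads were recovered from each column (100% of values within 0.01 of a whole read). The protocols differ on the library kit, so it is open whether strand was kept.

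Genes averaging 10 normalized counts or more over a table's libraries were compared with limma 3.58.1 (R 4.3.3) on log2(normalized count + 1). Benjamini-Hochberg adjustment was over all tested genes. On this scale changes of low genes depend on the added 1, and a single library at or near 0 can widen them. Calls needed an adjusted p of at most 0.05 and, in the aging table, a log2 difference of 0.5 or more in either direction. edgeR 4.0.16 and DESeq2 1.42.0 on recovered reads, other pseudocounts, filters and scalings, a replicate block and leaving out each library were alternatives. Single members were tested by exact two-sided permutation. The fits were tested on simulated data.

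Gene coordinates and transcript lengths are from GENCODE M21 and promoter windows from RefSeq. The members and lists were chosen with earlier results of these data known. Named genes are members past a threshold, up to 5 in each direction with the smallest p of at most 0.05, the highest per family, 2 lists of channels, and the partners and transport genes with the smallest p. Some genes are not reported here, by name or in the plots. Kcne2 and Kcnq1 were named after their values were seen.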

Additional observations from a re-analysis of the deposited data

Results flagged for a closer look

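Each named member was examined within each group of 4 to 10 libraries for a single library far from the rest. In 100 groups of values, 12 were found. A rate of about 1 in 20 holds only for independent normal values. These counts include values of 0 and the groups share libraries, so 12 is not read as an excess over chance. Control 9905 of the overexpression table accounts for 4 of them, with normalized counts of 146 for Kcnd3 (729 to 951 in the other controls), 1312 for Kcng1 (596 to 688), 1.35 for Kcnj10 (163 to 236) and 2979 for Kcnj9 (1621 to 1856). In the same table control 9901 held 28.3 for Kcnj8, which had no read in the other 4 controls. Among libraries labelled Ftl1 OE, 9932 held 799.5 for Kcnab1 (1385 to 1908 in the others) and 118 for Kcnk2 (250 to 363), and 9918 held 0 for Kcnj16 (15.5 to 107) and 5.30 for Kcnn3 (100 to 248). Library 9915 held 499 for Kcnh3 (1038 to 1581) and 9923 held 5258 for Kcnk1 (3806 to 4203). In the knockdown table labelled replicate 5 held 0 for Kcnq1ot1, against 4.79 to 7.29 in the other labelled libraries.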

How the results depend on the processing

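In the aging and overexpression tables, 0 members passed under any of the 17 and 23 alternatives run, and the members' median log2 difference ranged from -0.03 to 0.22 and from 0.09 to 0.31. DESeq2 called 138 and 91 genes among all tested in these tables, where limma called 0. In the knockdown table the 4 members kept their lower direction in every fit that tested them, and scaling, centring, edgeR and DESeq2 left all 4 past the threshold. Leaving out single knockdown libraries gave between 1 and 4 calls and a median log2 difference between -1.65 and -1.01. With no filter, 3 members passed and the median over 76 members was -0.38, and with a mean of at least 2 it was -1.06 over 36. Both fits hold more low genes. With a pseudocount of 0.5, Kcnq1ot1 missed the threshold. No member reached a mean of 100 there, so that fit gave no value. The replicate block, over the numbers 1, 3 and 5 that both knockdown groups share, left 2 calls, and the same 6 libraries without a block also left 2. Same-numbered libraries of the knockdown table did not deviate together (correlations of -0.03, -0.02 and -0.05). In the aging table the correlations were -0.05 and 0.02. With only 2 aged libraries the values of each young library mirror each other, so these cannot decide on pairs. The replicate block left 0 calls there. The numbers were not taken as pairs in either table. Depth limits the knockdown table most: 72 of 94 channel genes had a read, and 3 passed the limit on the mean.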
